A study of Mus musculus with 68 samples.

Results

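Gene expression was compared between E9.5 and E9.0 (embryonic days 9.5 and 9.0) in the second pharyngeal arch, PA2, of mouse embryos labelled Hoxa2-/-. Every library that the labels gave as PA2, Hoxa2-/- and 1 of these stages was taken, which gave 5 libraries at E9.5 and 4 at E9.0, 9 of the 68 libraries in the series. All groups were of the strain CBA/Ca/J x C57BL/10. The series also holds PA1, the first arch, wildtype embryos, and E10.0 and E10.5, and 4 groups of it served for comparison: PA1 labelled Hoxa2-/- (4 libraries at E9.0, 5 at E9.5) and PA2 labelled wildtype (4 at each stage). Per the series text, both arches were taken from single embryos. The libraries of 1 arch therefore come from different embryos, and a replicate number that PA1 and PA2 share was read as marking the embryo. The Hoxa2 allele and the way embryos were genotyped are not given in the sources used here. Arches were dissected by hand, so each library mixes all cell types that the piece held, and in such bulk tissue fewer cells of a type and less RNA per cell cannot be told apart.

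A pharyngeal arch is a pocket of ectoderm outside and endoderm inside, filled with mesoderm and with neural crest cells that migrate in from the hindbrain. The crest of PA1 forms the jaws and most middle ear bones, and that of PA2 forms the stapes and part of the hyoid. Hoxa2, a homeobox transcription factor, is the selector gene of PA2 crest, and mice that lack it form a mirror-image set of PA1 skeletal elements in the place of the PA2 ones. Signals from the epithelia, such as FGF8, BMP4, Sonic hedgehog and endothelin 1, pattern the crest, and Dlx, Hand, Barx and Alx genes in the mesenchyme record its position.

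Values are CPM (reads scaled to library size, as the authors deposited them), given in the order of the replicate numbers, which have no order of their own, and a mean is given ± SD over the 4 E9.0 or 5 E9.5 libraries (4 for wildtype at either stage). A log2 difference is E9.5 minus E9.0 on log2(CPM + 1), from a limma fit over all 68 libraries, and a gene was called where its Benjamini-Hochberg adjusted p over the 18428 tested genes was under 0.05. The 9 libraries held 10721959 to 14732948 recovered reads, at which 3 reads equal 0.207 to 0.284 CPM. Hoxa2 (chr6:52162417-52164831, minus strand, mm10), the gene named in the label, was read first, and it had 16.8, 32.0, 36.3 and 29.6 CPM at E9.0 and 48.9, 48.6, 53.5, 102 and 50.6 CPM at E9.5. The stages did not overlap, the log2 difference was 1.04 ± 0.17 (SE, adjusted p = 1.85e-05), and PA2 labelled wildtype had 22.3 ± 1.40 CPM at E9.0 and 40.7 ± 6.80 CPM at E9.5 (SD, n = 4 each). The level of Hoxa2 thus showed no loss and cannot test the label, which is therefore written as a label throughout. The allele is not given, and a value for the whole gene cannot show the loss of a part of it. PA1 with the same label had 0.398 CPM of Hoxa2 or less at E9.0 and 0.457 CPM or less at E9.5, so the 9 libraries stood apart from PA1 in the gene that marks PA2. Y-linked genes (4 genes, mean over 5 CPM) were read in 2 of the 4 E9.0 libraries and 1 of the 5 E9.5 libraries.

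Heart, yolk sac and blood lie close to the arches at these stages, and their marker genes were set apart from those of the arch. A few heart muscle genes fell, and their sums overlapped between the stages. The summed level of the heart muscle list, 21 measured genes of the sarcomere and of heart hormones, was 1396, 799, 147 and 1167 CPM at E9.0 and 80.9, 592, 885, 22.2 and 499 CPM at E9.5. The stages overlapped, E9.5 replicates 4 and 1 were lowest, and E9.0 replicate 3 was the lowest of its stage. Of the 21 tested genes 4 fell, namely Tnnc1 (-1.86 log2), Tnni1 (-1.78), Csrp3 (-1.13) and Smpx (-0.78), against 6.94% of all tested genes, and 20 of 21 had a log2 difference below 0, with a median of -1.13 against -0.01 over all tested genes. By limma no heart gene was called without E9.5 replicate 4 (3 were lower at an unadjusted p under 0.05), 8 fell without E9.0 replicate 3 (2.71% of all genes fell in that fit), and edgeR with all 9 libraries called 0. Myh7, the slow myosin heavy chain, shows the spread: it had 359.7, 146, 22.9 and 185 CPM at E9.0 against 18.5, 100.2, 226, 4.81 and 134 CPM at E9.5, and its difference was -1.27 ± 0.80 (SE, adjusted p = 0.274). Summed heart levels in PA1 were 36.6 to 94.5 CPM at E9.0 against 22.2 to 144 CPM at E9.5, and wildtype PA2 held 88.2 to 1610.2 CPM and 81.8 to 1362 CPM.

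The yolk sac list, 16 genes of visceral endoderm such as serum protein and apolipoprotein genes, set 1 library apart. Its sum was 34.8, 24.9, 542 and 41.4 CPM at E9.0 and 22.0, 28.5, 60.7, 21.7 and 31.2 CPM at E9.5. E9.0 replicate 3 held 542 CPM and every other library 60.7 CPM or less, so 1 library carried the difference between the stages. Rbp4, the retinol carrier, had 5.54, 3.04, 205 and 7.75 CPM at E9.0 against 3.17, 3.43, 14.2, 1.22 and 4.72 CPM at E9.5, and Apoa1, an apolipoprotein, had 3.32, 0.411, 96.8 and 4.43 CPM at E9.0 and 0.483, 1.55, 6.89, 0.647 and 1.74 CPM at E9.5. By limma 0 of 16 genes were called (5 at an unadjusted p under 0.05), and edgeR called 6, all lower (5.38% of all genes were lower in edgeR). The log2 ratio of the mean sums was -2.29 with all 9 libraries and -0.039 without E9.0 replicate 3. Wildtype PA2 held 22.1 to 32.2 CPM at E9.0 and 14.5 to 19.5 CPM at E9.5.

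The embryonic red cell list, 23 genes of globins, membrane proteins and erythroid factors, had sums of 2188, 3016, 4587 and 2784 CPM at E9.0 and 941, 1698, 3841, 1259.7 and 2012 CPM at E9.5. The stages overlapped, and E9.0 replicate 3 was again the highest. Of 23 tested genes 4 fell: the erythroid transcription factor genes Klf1 (-1.24 log2), Gata1 (-1.22) and Nfe2 (-1.03), and Trim10 (-1.20), an erythroid gene of the TRIM family. By limma no red cell gene was called without E9.0 replicate 3 or without E9.5 replicate 4 (4 were lower at an unadjusted p under 0.05 in either case), and edgeR with all 9 libraries called 1. Hba-x, the embryonic alpha-like globin, had 542, 634, 1400.0 and 645 CPM at E9.0 and 220.4, 381, 719.9, 226 and 429.9 CPM at E9.5 (log2 -1.06 ± 0.51 SE, adjusted p = 0.146). The adult globins are near-identical copies whose reads the authors' counting could have split, so they are read only within the sum. In wildtype PA2, where the sums were 4084 to 75823 CPM at E9.0 and 2461 to 5526 CPM at E9.5, 15 genes of the list fell (2.63% of all genes fell in wildtype PA2). The wildtype E9.0 median was 5328 CPM, so the highest library stood far apart, and no fit left out a single wildtype PA2 library.

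Among the other cell types, few marker genes were called. The macrophage list summed to 3.45 to 6.55 CPM at E9.0 against 2.55 to 8.12 CPM at E9.5, so its genes were read at low levels. Of 13 tested genes 10 had a log2 difference above 0, with a median of 0.15. By limma 1 gene was called, lower, and edgeR called 1 higher and 1 lower. The gene that fell in limma was the Fc receptor gene Fcgr3, with 2.22, 2.22, 3.98 and 1.75 CPM at E9.0 and 1.10, 0.327, 0.508, 0.719 and 0.556 CPM at E9.5. The endothelium list, 424 to 857 CPM and 433 to 720.0 CPM, had 2 of 16 genes lower: Egfl7 (log2 -0.68 ± 0.12 SE, adjusted p = 4.73e-05), a secreted vessel protein gene, and Esam (-0.52), a junction protein gene. Cranial ganglion neurons summed to 17.4 to 46.0 CPM and 9.99 to 61.3 CPM, and 0 of 11 genes were called by limma or by edgeR (3 at an unadjusted p under 0.05 in limma), while 2 rose without E9.5 replicate 4 (5.79% of all genes rose in that fit). Neural tube genes, of which 4 of 11 were in the table and 2 were tested, summed to 6.06 to 13.6 CPM and 6.75 to 9.72 CPM, and Pax6, a gene of the ventricular zone, fell by 0.86 on the log2 scale. Otic vesicle genes summed to 51.8 to 97.7 CPM and 14.6 to 42.4 CPM without overlap, mostly Pax8, the 1 of 3 tested genes that fell. Migrating crest and glia genes had 1 of 10 higher, Sox8 (0.80), and 2 lower, among them Sox10 (-1.47), the crest and glial factor, which had 30.2, 20.04, 31.8 and 8.03 CPM at E9.0 and 24.5, 6.29, 14.3, 0.359 and 5.56 CPM at E9.5. Its E9.5 libraries ran from the level of E9.0 down to near 0 in replicate 4, and its call held in 3 of the 9 fits with a library left out. No marker in the table was at 0 in all 9 libraries. The plot of summed marker levels gives all 8 lists by library.

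**Figure D1:**
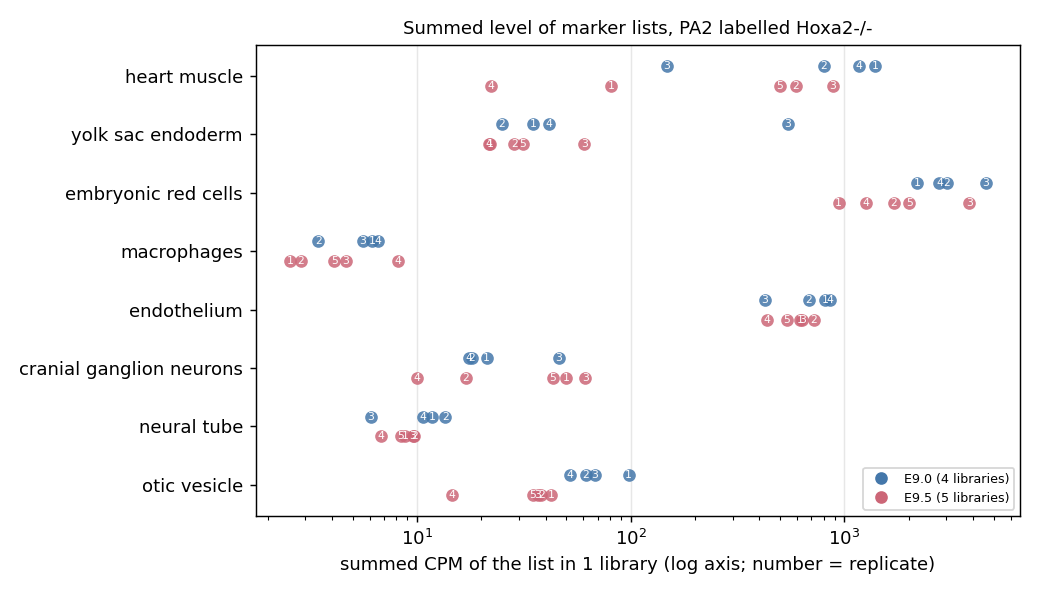
Summed CPM (log axis) of 8 marker lists in each PA2 library labelled Hoxa2-/-, 1 point per library with its replicate number, blue for E9.0 (n = 4) and red for E9.5 (n = 5). E9.0 replicate 3 stands apart in the yolk sac list at 542 CPM, E9.5 replicate 4 is lowest for heart muscle at 22.2 CPM, and the stages overlap in 7 of the 8 lists, all but the otic vesicle list.

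Between E9.0 and E9.5 3119 of 18428 genes were called (16.9%): 1840 rose (9.98%) and 1279 fell (6.94%). The median size of a called difference was 0.49 on the log2 scale, 110 genes exceeded 1 and 90 were below -1, so most changes were under 2-fold. Of all tested genes 6.83% had libraries that did not overlap between the stages, and 1034 called genes were among them, 584 higher and 450 lower. The same 2 libraries were the extreme ones in many of these genes. E9.5 replicate 4 was the highest library in 390 of the 584 and the lowest in 257 of the 450, and E9.0 replicate 3 was the lowest in 429 and the highest in 240. Without E9.0 replicate 3, 931 genes were called (5.05%), 2.34% higher and 2.71% lower. Without E9.5 replicate 4 there were 1664 (9.03%), 5.79% higher and 3.24% lower, and without both 328 (1.78%), 147 higher and 181 lower. A core of 611 genes (3.32%; 342 higher, 269 lower) was called whichever of the 9 libraries was left out. With the mean levels of the heart, yolk sac and red cell lists as covariates 2849 genes were called (15.5%), 2352 of them among the 3119, and the part of these tissues in the calls was not tested beyond this fit. In a fit of the 9 libraries alone 5 genes were called (0.0271%), against 3101 at an unadjusted p under 0.05, so the count depends on estimating the spread over the whole series.

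**Figure D2:**
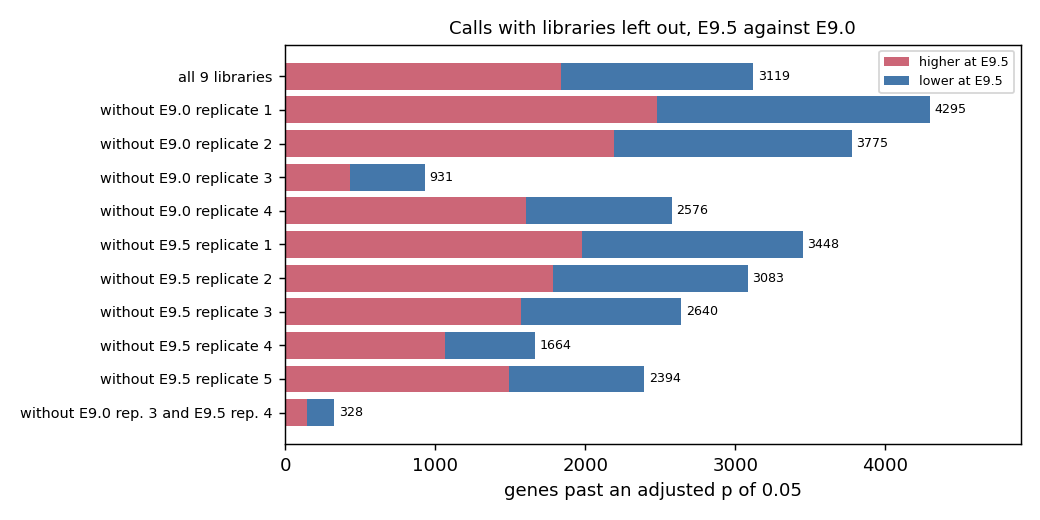
Number of genes past an adjusted p of 0.05 in PA2 labelled Hoxa2-/-, E9.5 against E9.0, with all 9 libraries, with each library left out in turn, and with 2 left out together (red higher, blue lower at E9.5, totals printed). The count falls from 3119 to 931 without E9.0 replicate 3, to 1664 without E9.5 replicate 4 and to 328 without both.

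Homeobox genes of the arch were among the largest increases. By rule, up to 12 genes with the largest log2 difference in each direction were named among called genes with separate stages and a mean of at least 10 CPM, and all 12 rising ones were also called whichever library was left out. Barx1, a homeobox gene of arch mesenchyme that marks skeletal condensations, had 6.48, 6.74, 1.14 and 4.25 CPM at E9.0 and 15.6, 34.8, 46.3, 228 and 42.6 CPM at E9.5. Replicate 4 was by far the highest at E9.5, and the log2 difference was 3.28 ± 0.52 (SE, adjusted p = 1.45e-05). In the next 3 genes replicate 4 was again the highest. Dlx3, a homeobox gene of the ventral arch and its ectoderm, had 7.67, 11.4, 4.73 and 11.3 CPM at E9.0 and 21.0, 31.4, 25.8, 108 and 22.4 CPM at E9.5 (log2 1.88 ± 0.32 SE, adjusted p = 4.69e-05). Dlx6os1 (chr6:6820189-6871592, minus strand, mm10), a long non-coding RNA whose gene overlaps Dlx6 on the opposite strand, had 0.767, 8.13, 1.04 and 3.78 CPM at E9.0 and 16.7, 30.4, 27.2, 106 and 34.4 CPM at E9.5 (log2 3.34 ± 0.39 SE, adjusted p = 1.7e-08). Its reads and those of Dlx6 cannot be told apart without strand, which is not stated for the counting. Mab21l1, a gene needed for eye and craniofacial development, had 0.341, 4.11, 0.5678 and 3.14 CPM at E9.0 and 11.5, 15.6, 12.6, 51.4 and 15.8 CPM at E9.5 (log2 2.88 ± 0.35 SE, adjusted p = 8.37e-08). In each of these 4 genes E9.0 replicate 1 or 3 was lowest and E9.5 replicate 4 highest by more than 2-fold.

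Receptor and signalling genes followed. Epha3, an ephrin receptor, had 2.04, 8.87, 0.852 and 8.58 CPM at E9.0 and 18.1, 26.2, 29.5, 92.2 and 42.6 CPM at E9.5 (log2 2.92 ± 0.36 SE, adjusted p = 8.37e-08). Heyl, a bHLH repressor downstream of Notch, had 3.07, 5.75, 6.25 and 7.01 CPM at E9.0 and 15.0, 16.8, 28.9, 26.9 and 18.5 CPM at E9.5 (log2 1.77 ± 0.24 SE, adjusted p = 6.94e-07). Smoc1, a secreted matrix protein that limits BMP signalling, had 8.86, 16.5, 13.1 and 4.89 CPM at E9.0 and 23.2, 22.9, 40.3, 49.4 and 37.4 CPM at E9.5 (log2 1.64 ± 0.27 SE, adjusted p = 3.8e-05). In these 3 genes, as in all named rising ones, the rule required every E9.5 library to be above every E9.0 library. Rarres1, a retinoic acid responsive membrane protein gene, had 2.13, 2.79, 7.86 and 1.57 CPM at E9.0 and 8.69, 12.6, 10.8, 35.6 and 16.04 CPM at E9.5 (log2 1.96 ± 0.32 SE, adjusted p = 2.71e-05), with E9.0 replicate 3 just under the lowest E9.5 library. In Trp63 and Stk26 the other E9.5 libraries were well above E9.0 as well. Trp63, the master regulator of stratified epithelium, had 8.86, 23.0, 9.84 and 14.3 CPM at E9.0 and 32.9, 45.4, 50.9, 63.2 and 74.0 CPM at E9.5 (log2 1.89 ± 0.20 SE, adjusted p = 4.79e-09). Stk26, a germinal centre kinase, had 27.1, 54.3, 34.7 and 53.0 CPM at E9.0 and 86.7, 113, 128, 217 and 128 CPM at E9.5 (log2 1.64 ± 0.22 SE, adjusted p = 3.77e-07). Cdkn1a, which encodes the cell cycle inhibitor p21, had 5.71, 4.43, 6.06 and 3.88 CPM at E9.0 and 16.9, 17.2, 13.5, 26.7 and 14.8 CPM at E9.5 (log2 1.62 ± 0.18 SE, adjusted p = 8.06e-09). The spread of Cdkn1a at E9.0, 5.02 ± 1.03 CPM (SD, n = 4), was small beside the gap to 17.8 ± 5.17 CPM (SD, n = 5), and it was also called in the fit of the 9 libraries alone (adjusted p = 0.0356).

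Dnm3os, an RNA transcribed from the strand opposite Dnm3 (chr1:162217623-162225550, plus strand, mm10), completed the 12. It had 2.64, 3.29, 1.42 and 1.75 CPM at E9.0 against 5.45, 9.56, 14.9, 23.9 and 10.4 CPM at E9.5 (log2 1.97 ± 0.33 SE, adjusted p = 3.41e-05). This transcript is the host of 2 microRNA hairpins, and the 4 mature sequences that lie inside it in RefSeq (GRCm38.p6) are shown because the rising RNA is the precursor they are cut from. The seed, bases 2 to 8, is in capitals, and the 4 seeds differ from each other.
mmu-miR-199a-5p: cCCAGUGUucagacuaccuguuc
mmu-miR-199a-3p: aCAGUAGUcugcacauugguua
mmu-miR-214-5p: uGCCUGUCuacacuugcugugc
mmu-miR-214-3p: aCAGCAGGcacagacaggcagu
Mature microRNAs carry no poly(A) tail and were not measured here, and without strand the reads of Dnm3os cannot be told apart from unspliced Dnm3. The host gene had 10.1 ± 2.42 CPM at E9.0 and 18.1 ± 9.58 CPM at E9.5 in PA1 with the same label and 3.56 ± 1.13 CPM at E9.0 and 6.98 ± 3.14 CPM at E9.5 in wildtype PA2, where its differences were 0.69 (adjusted p = 0.293) and 0.77 (adjusted p = 0.152).

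**Figure D3:**
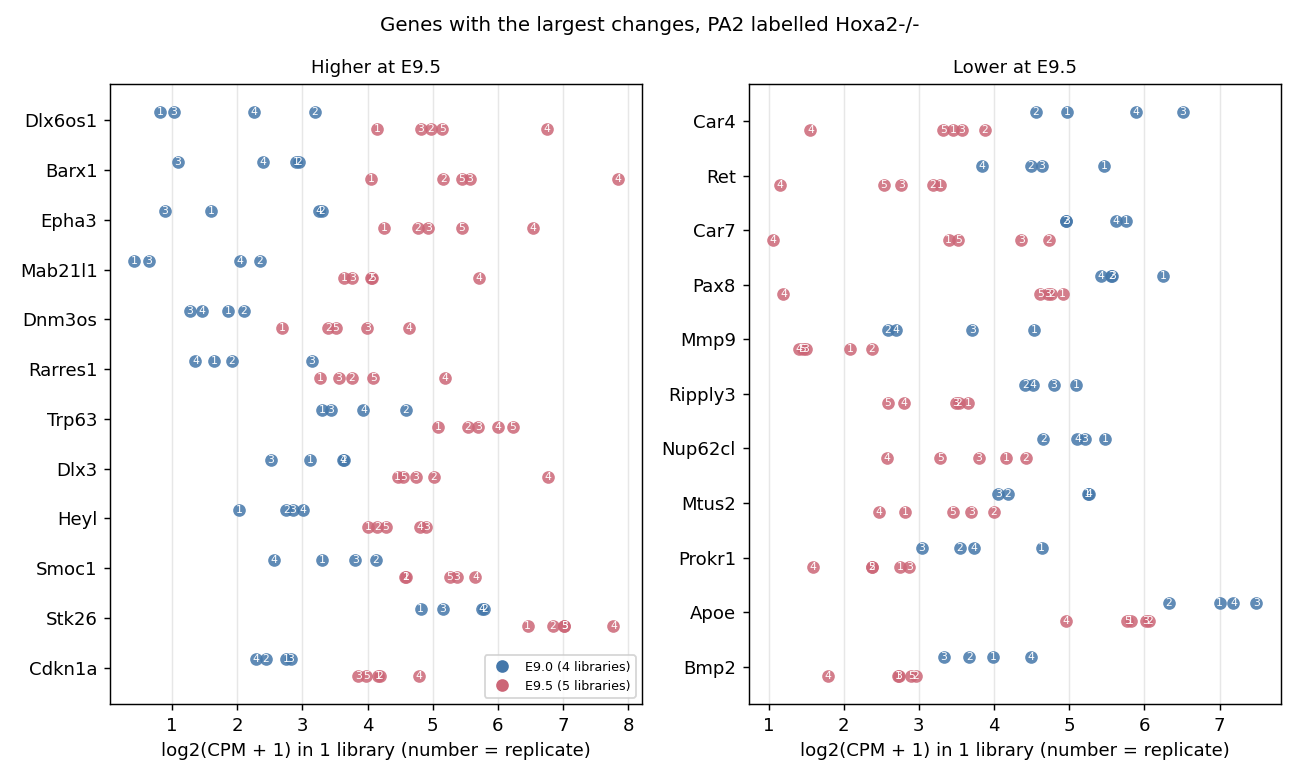
log2(CPM + 1) of the 12 rising and 11 falling genes described, 1 point per PA2 library labelled Hoxa2-/- with its replicate number, blue for E9.0 (n = 4) and red for E9.5 (n = 5). The stages do not overlap in any of the 23 genes, which the rule required, and E9.5 replicate 4 is the highest or lowest E9.5 library in 20 of them.

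Enzyme and receptor genes were among the largest decreases. Car4, a membrane-bound carbonic anhydrase, had 30.4, 22.6, 90 and 58.4 CPM at E9.0 and 9.93, 13.7, 10.9, 1.94 and 9.03 CPM at E9.5 (log2 -2.33 ± 0.41 SE, adjusted p = 8.9e-05), with E9.0 replicate 3 highest. Car7, a cytosolic one, had 53.1, 30.1, 30.1 and 48.2 CPM at E9.0 and 9.52, 25.5, 19.6, 1.08 and 10.49 CPM at E9.5 (log2 -1.91 ± 0.47 SE, adjusted p = 0.00412). Ret, the receptor tyrosine kinase for GDNF family ligands, had 43.2, 21.5, 23.9 and 13.3 CPM at E9.0 and 8.76, 8.09, 5.80, 1.22 and 4.79 CPM at E9.5 (log2 -2.02 ± 0.29 SE, adjusted p = 3e-06). In these 3 genes replicate 4 was lowest at E9.5 by a wide margin. Prokr1, a prokineticin receptor, had 23.8, 10.7, 7.19 and 12.3 CPM at E9.0 and 5.72, 4.17, 6.31, 2.01 and 4.17 CPM at E9.5 (log2 -1.35 ± 0.26 SE, adjusted p = 0.000292). Mmp9, a gelatinase that degrades matrix, had 22.1, 5.01, 12.1 and 5.45 CPM at E9.0 and 3.24, 4.17, 1.81, 1.65 and 1.74 CPM at E9.5 (log2 -1.62 ± 0.32 SE, adjusted p = 0.000504), and Apoe, an apolipoprotein gene, had 127, 79.3, 179 and 144 CPM at E9.0 and 55.4, 66.0, 64.0, 30.03 and 53.6 CPM at E9.5 (log2 -1.27 ± 0.21 SE, adjusted p = 2.71e-05). Apoe was highest in E9.0 replicate 3, the library with the yolk sac signal, and without that library it still fell (adjusted p = 0.00106). E9.5 replicate 4 was the lowest library in all 6 genes, in Mmp9 by a small margin.

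Transcriptional regulators were among the falling genes too. Ripply3, a co-repressor that acts with Tbx1 in pharyngeal endoderm, had 33.1, 20.4, 26.8 and 22.0 CPM at E9.0 and 11.6, 10.54, 10.2, 5.96 and 5.00 CPM at E9.5 (log2 -1.50 ± 0.19 SE, adjusted p = 1.39e-07), with every E9.5 library at 11.6 CPM or less and every E9.0 library at 20.4 CPM or more. Pax8, a paired-box gene of the otic, thyroid and kidney primordia, had 75.0, 46.2, 46.7 and 41.7 CPM at E9.0 and 29.1, 26.1, 25.3, 1.29 and 23.5 CPM at E9.5 (log2 -1.66 ± 0.52 SE, adjusted p = 0.0213). Pax8 fell short of the threshold without E9.5 replicate 4 (adjusted p = 0.185), without E9.0 replicate 3 (0.0665) or replicate 1 (0.0503), in edgeR (0.122) and in limma with a pseudocount of 0.25 (0.076). Bmp2 fell short of it without E9.5 replicate 4 (adjusted p = 0.0798) or E9.0 replicate 4 (0.0759), and the other 9 falling genes described here were called whichever library was left out. With the heart, yolk sac and red cell levels as covariates, Car7 went to -0.93 (adjusted p = 0.108), Nup62cl to -1.05 (0.0651), Pax8 to -1.07 (0.153) and Bmp2 to -0.79 (0.137) in limma, and none of these 4 was called, while the other 7 falling and all 12 rising genes were. Mtus2, which encodes a microtubule-associated protein, had 36.9, 17.2, 15.6 and 37.4 CPM at E9.0 and 6.07, 14.9, 11.97, 4.53 and 9.93 CPM at E9.5 (log2 -1.40 ± 0.28 SE, adjusted p = 0.000602). Nup62cl, a relative of a nuclear pore gene, had 43.6, 24.2, 35.9 and 33.5 CPM at E9.0 and 16.9, 20.51, 12.9, 4.96 and 8.75 CPM at E9.5 (log2 -1.46 ± 0.38 SE, adjusted p = 0.00641).

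The Hox genes did not move together. The list of Hox genes and their TALE cofactors (Pbx, Meis and Pknox homeobox proteins that bind DNA with Hox proteins) had 15 tested genes, of which 4 rose and 2 fell (Hoxb1 among them), against 9.98% and 6.94% of all genes, the shares against which the calls of each list below stand. Hoxb1, the homeobox gene of the hindbrain segment whose crest fills PA2, had 7.84, 3.78, 5.02 and 8.40 CPM at E9.0 against 0.414, 0.899, 0.871, 0.144 and 2.57 CPM at E9.5 and fell by 1.93 on the log2 scale (adjusted p = 3.77e-07). Every E9.5 library was below every E9.0 library, and E9.5 replicate 4, at 0.144 CPM, was under 3 reads. Hoxa2 and its antisense neighbour Hoxaas2 rose. Hoxaas2 (chr6:52165674-52169564, plus strand, mm10) had 4.86, 6.98, 6.34 and 5.08 CPM at E9.0 and 7.31, 10.8, 12.9, 19.5 and 9.93 CPM at E9.5 (log2 0.89 ± 0.15 SE, adjusted p = 5.1e-05), and without strand its reads are uncertain too. Of the cofactors, Pknox2 rose from 57.1 ± 10.98 to 86.6 ± 17.3 CPM (log2 0.59) and Pbx3 from 51.5 ± 9.17 to 68.1 ± 10.47 CPM (log2 0.40). The 4 increases and the fall of Hoxb1 held whichever library was left out.

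Genes reported as targets of Hoxa2 were read because the label names that gene. Of 12 tested, 4 rose and 1 fell, against 9.98% and 6.94% of all genes. Without E9.0 replicate 3, 2 rose (2.34% of all genes), and without E9.5 replicate 4 as well, 1 did (0.798%). Wnt5a, a secreted Wnt of arch mesenchyme, had 44.3, 71.4, 21.6 and 49.3 CPM at E9.0 and 93.6, 104.8, 98.6, 136 and 89.2 CPM at E9.5 (log2 1.25 ± 0.19 SE, adjusted p = 9.35e-06), with all E9.5 libraries above all E9.0 libraries. Zfp703, a zinc finger repressor gene, rose from 4.53 ± 0.974 to 8.60 ± 3.68 CPM (SD, log2 0.74), and Alx4, a homeobox gene, from 4.35 ± 1.99 to 9.01 ± 3.38 CPM (log2 0.95, not called without E9.0 replicate 3). Kcna5, a potassium channel gene, had 5.11, 4.43, 3.79 and 4.06 CPM at E9.0 and 6.55, 6.78, 6.31, 7.26 and 6.11 CPM at E9.5, which did not overlap, but the call of its log2 difference of 0.51 (adjusted p = 0.0456) held in only 1 of the 9 fits with a library left out. In wildtype PA2 Kcna5 went from 8.97 ± 2.47 to 27.3 ± 3.72 CPM (log2 1.53), and the difference between the labels, -1.02, missed the threshold (adjusted p = 0.111). Meox1, a mesodermal and crest homeobox gene, fell by 0.96 on the log2 scale (adjusted p = 0.0491), and this call held in 5 of the 9 fits. Of the 12 targets 5 rose in PA1 of the same label and 5 in wildtype PA2, so increases in this list were not particular to PA2 labelled Hoxa2-/-. In those 2 sets 2.85% and 6.68% of all genes were called in either direction.

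In the list of arch mesenchyme factors 6 of 31 rose and 2 fell, against 9.98% and 6.94% of all genes, with a median log2 difference of 0.21. Most factors of the list were not called. Prrx1, a homeobox gene of skeletal mesenchyme, had 16.7, 47.6, 19.0 and 35.9 CPM at E9.0 and 55.3, 62.7, 62.0, 131 and 57.7 CPM at E9.5 (log2 1.32 ± 0.20 SE, adjusted p = 1.02e-05). Its relative Prrx2 went the other way, from 191 ± 23.1 to 135 ± 22.8 CPM (log2 -0.50). Sox9, the cartilage factor, had 30.9, 60.8, 52.2 and 42.0 CPM at E9.0 and 81.2, 89.5, 82.8, 129 and 63.9 CPM at E9.5 (log2 0.93 ± 0.18 SE, adjusted p = 0.000369), and E9.5 libraries were all above E9.0 libraries. Nr2f2, a nuclear receptor gene, rose by 0.67 and Pdgfra, a growth factor receptor of crest mesenchyme, by 0.67 on the log2 scale, the latter not called without E9.0 replicate 3.

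The endothelin, Dlx and Hand list, which orders the arch from dorsal to ventral, had 6 of 14 genes higher and 1 lower. Among the Dlx homeobox genes, Dlx5 had 8.61, 43.8, 22.9 and 31.8 CPM at E9.0 and 52.9, 57.1, 36.6, 82.2 and 29.9 CPM at E9.5 (log2 1.04 ± 0.28 SE, adjusted p = 0.00838), with E9.0 replicate 1 lowest. Dlx6 rose from 2.60 ± 1.57 to 5.34 ± 1.55 CPM (log2 0.92), Dlx1 from 36.3 ± 10.7 to 55.7 ± 12.2 CPM (log2 0.62), and Dlx4 from 0.302 ± 0.261 to 3.35 ± 5.40 CPM (log2 1.16). The Dlx4 value at E9.5 was mostly replicate 4, at 13.0 CPM, while the other 4 libraries had 0.871 to 1.06 CPM. Jag1, a Notch ligand of the dorsal arch, rose by 0.63 on the log2 scale. Mef2c, a factor downstream of endothelin that is also a heart and endothelial gene, fell from 108 ± 34.4 to 60.0 ± 24.8 CPM (log2 -0.91), and with the tissue levels as covariates its difference was -0.57 (adjusted p = 0.13). Without E9.5 replicate 4, 2 genes of the list were called, both higher.

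The epithelial and pouch list had 4 of 22 genes higher and 5 lower, and 13 were not called. Among those that rose, beside Trp63, Tfap2c, an ectodermal AP-2 factor, went from 2.95 ± 0.335 to 7.13 ± 2.07 CPM (log2 1.01), and Cdh1, the epithelial cadherin, rose by 0.60. Among those that fell, Krt18, a keratin of simple epithelium, had 390.1, 278, 272 and 480.2 CPM at E9.0 and 176, 234, 175, 98.2 and 236 CPM at E9.5 (log2 -0.97 ± 0.21 SE, adjusted p = 0.00108), its keratin partner Krt8 fell by 0.69 and Epcam, an epithelial adhesion gene, by 0.35, and Nkx2-6, a homeobox gene of the caudal pouches, went from 83.1 ± 14.1 to 41.1 ± 21.8 CPM (log2 -1.14). Ripply3 was the other falling gene. Cdh1 was at 43.1 CPM in E9.0 replicate 3 and between 124 and 191 CPM in the other E9.0 libraries, and without that library it was not called.

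Cranial mesoderm and muscle genes had 2 of 14 higher and 4 lower. Among the falling genes, Isl1, a LIM-homeobox gene of pharyngeal mesoderm, had 180.5, 103, 109 and 172 CPM at E9.0 and 85.7, 94.3, 104.6, 54.0 and 93.7 CPM at E9.5 (log2 -0.69 ± 0.17 SE, adjusted p = 0.00342). Nkx2-5, a homeobox gene of heart and pharyngeal mesoderm, fell from 14.1 ± 7.01 to 5.12 ± 2.88 CPM (log2 -1.36), and Tlx1, a homeobox gene of PA2 and of the spleen primordium, from 57.1 ± 16.3 to 33.0 ± 8.89 CPM (log2 -0.77). Isl1 and Nkx2-5 are also expressed by heart progenitors, and with the tissue covariates they fell by 0.49 and 0.80 on the log2 scale (adjusted p = 0.0103 and 0.0442). The rising genes were Eya1, a transcriptional co-activator (0.46), and Myf5, the first muscle determination gene of the arches, at 0.807 ± 0.460 and 2.02 ± 0.748 CPM (log2 0.74).

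BMP signalling genes moved in 1 direction: 7 of 13 tested genes were called, all lower, against 6.94% of all genes, and the median difference was -0.43. Among the ligands, Bmp4 had 88.8, 64.1, 46.0 and 92.0 CPM at E9.0 and 30.6, 58.3, 46.7, 15.8 and 46.4 CPM at E9.5 (log2 -0.93 ± 0.26 SE, adjusted p = 0.00873), Bmp2 had 14.8, 11.8, 9.09 and 21.5 CPM at E9.0 and 5.58, 6.78, 5.66, 2.44 and 6.46 CPM at E9.5 (log2 -1.25 ± 0.38 SE, adjusted p = 0.0176), and Bmp5 fell by 0.75 on the log2 scale. Among the targets, Id1 had 202, 199, 202 and 204 CPM at E9.0 and 160.2, 151, 121, 73.7 and 124 CPM at E9.5 (log2 -0.72 ± 0.14 SE, adjusted p = 0.00032). Its E9.0 libraries lay close together, and all 5 E9.5 libraries were lower. Id3 fell from 529 ± 39.0 to 356 ± 61.5 CPM (log2 -0.58), Id2 by 0.43, and Bambi, a decoy receptor induced by BMP, by 0.68. Id1 and Id3 were called whichever library was left out, and without E9.5 replicate 4 they were the 2 genes of the list that stayed past the threshold. Without both E9.0 replicate 3 and E9.5 replicate 4, 3 fell, against 0.982% of all genes, and with the tissue covariates 3 fell, against 6.24%.

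Hedgehog genes moved the other way, with 6 of 11 called, all higher, against 9.98% of all genes, and a median of 0.44. The transducer genes Gli3 (log2 0.71 ± 0.16 SE, adjusted p = 0.00162), Gli2 (0.61) and Smo (0.31), the co-receptor Gas1 (0.44) and the target genes Gli1 (0.71) and Ptch1 (0.57) rose. Gli3 had 74.9, 71.0, 29.8 and 54.6 CPM at E9.0 against 81.6, 79.9, 85.7, 115 and 89.2 CPM at E9.5, and Ptch1 had 41.7, 49.0, 21.9 and 51.6 CPM at E9.0 and 59.2, 54.0, 45.1, 79.5 and 59.0 CPM at E9.5. In both genes E9.0 replicate 3 was far below the other 3 E9.0 libraries, and without it no Hedgehog gene was called by limma (4 were higher at an unadjusted p under 0.05). With all 9 libraries edgeR called 4 (8.16% of all genes were higher in edgeR), without E9.5 replicate 4 limma called 1, and with the tissue covariates it called 2 (9.23% of all genes were higher in that fit). In wildtype PA2 the median was 0.29 and in PA1 of the same label 0.17.

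Fibroblast growth factor genes had 2 of 14 called, both lower. Fgf8, the ligand made by arch epithelium, had 38.2, 30.4, 42.3 and 29.4 CPM at E9.0 and 28.7, 20.7, 20.6, 8.69 and 16.2 CPM at E9.5 (log2 -0.93 ± 0.20 SE, adjusted p = 0.00111), with no overlap between the stages, and Spry2, a feedback inhibitor, fell by 0.61 on the log2 scale. Fgf8 was called whichever library was left out. Wnt genes had 4 of 17 higher and 2 lower. The ligand Wnt5a and the Wnt enhancer Rspo2, with 6.65, 11.2, 5.02 and 12.1 CPM at E9.0 and 16.6, 21.2, 16.2, 29.3 and 21.2 CPM at E9.5 (log2 1.21 ± 0.21 SE, adjusted p = 7.43e-05), rose with no overlap between the stages. Of the canonical targets, Axin2 rose by 0.68, and Sp5 and Lgr5 fell by 1.20 and 0.77. Wnt6 (0.57) was the other rising gene. Retinoic acid genes had 2 of 15 higher, the receptor Rarg (log2 1.02 ± 0.18 SE, adjusted p = 7.44e-05) and Rarres1, and 2 lower, the retinol importer Stra6 (-0.51) and the binding protein gene Crabp2 (-0.45).

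Genes of developmental timing and of the tissue's build moved in a few members only. Of 11 heterochronic genes 3 rose: Lin28b, an RNA-binding protein gene that blocks let-7, with 109, 106, 42.7 and 87.6 CPM at E9.0 and 153, 131, 142, 261 and 149 CPM at E9.5 (log2 0.98 ± 0.18 SE, adjusted p = 0.000233), and the zinc finger genes Bcl11b (1.04) and Bcl11a (1.28). Bcl11a stood at 0.1704 to 0.411 CPM at E9.0 and at 0.207, 1.72, 1.02, 13.2 and 2.15 CPM at E9.5, so its mean rested on replicate 4, and neither Bcl11 gene was called without that library. Among matrix genes 5 of 27 rose, namely Col3a1, Lama4 (0.91), Col9a1 (0.81), Col5a2 (0.72) and Col2a1 (0.54), and 1 fell, Has2 (-0.76), which makes hyaluronan. Col3a1, a fibrillar collagen of loose mesenchyme, had 54.5, 108, 56.2 and 236 CPM at E9.0 and 121, 266, 250.5, 560.1 and 275 CPM at E9.5 (log2 1.47 ± 0.38 SE, adjusted p = 0.00586), and its stages overlapped. Without E9.0 replicate 3, 1 matrix gene rose (2.34% of all genes) and the median of the list turned from 0.24 to -0.086, and without E9.5 replicate 4 as well, 0 rose by limma (3 at an unadjusted p under 0.05), where edgeR with all 9 libraries called 4 higher. Of 27 cell cycle genes 2 rose, Cdkn1a and Top2a (0.34), and 2 fell, Ccnb2 (-0.32) and Aurka (-0.20). Immediate early and heat shock genes had 2 of 11 lower, Atf3 (-0.65) and Dusp1 (-0.43). By limma 0 were lower without E9.0 replicate 3 (5 at an unadjusted p under 0.05) and 0 without E9.5 replicate 4 (3 unadjusted), and edgeR with all 9 libraries called 1. Cytosolic ribosomal protein genes had 6 of 81 lower, near the background of 6.94%, but 77 had a log2 difference below 0, with a median of -0.17. With all 9 libraries edgeR called 4 lower (5.38% of all genes), and limma with the tissue covariates 18 (6.24%). Without E9.0 replicate 3 the median was -0.055, and limma called 0 (0 lower at an unadjusted p under 0.05).

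Glycolysis and hypoxia genes had the most calls of any list, 13 of 24, all lower, with a median of -0.41. They span the pathway from the glucose carriers Slc2a1 (-0.70) and Slc2a3 (-0.69) through Gpi1, Pfkl, Aldoa, Tpi1, Pgk1, Pgam1 and Pkm (between -0.56 and -0.33) to Ldha (-0.41) and the lactate carrier Slc16a3 (-0.79), and they include the hypoxia targets Bnip3 (-1.10) and Egln3 (-0.71). Pgk1, phosphoglycerate kinase, had 724, 717, 953 and 814 CPM at E9.0 and 848, 535, 579.9, 366 and 571 CPM at E9.5 (log2 -0.51 ± 0.13 SE, adjusted p = 0.00569). Ldha, lactate dehydrogenase, had 5087, 5379, 6526 and 5974 CPM at E9.0 and 6693, 4396, 4353, 3175 and 3663 CPM at E9.5 (log2 -0.41 ± 0.13 SE, adjusted p = 0.0267). Bnip3, a mitophagy gene, had 164, 102, 202 and 98.5 CPM at E9.0 and 259.9, 55.1, 94.6, 34.8 and 19.4 CPM at E9.5 (log2 -1.10 ± 0.36 SE, adjusted p = 0.0292). In all 3 genes E9.5 replicate 1 was as high as the E9.0 libraries or higher, while the other 4 E9.5 libraries were below every E9.0 library, and no gene of this list had stages without overlap. Only Tpi1 was called whichever library was left out, and without E9.0 replicate 3 it was the 1 gene called. Without E9.5 replicate 4, 2 genes were called. Without both of these libraries limma called 0 (6 lower at an unadjusted p under 0.05). With all 9 libraries edgeR called 6 of the list lower, and limma with the tissue covariates 7. Wildtype PA2 had 3 of these genes lower with a median of -0.34, and PA1 labelled Hoxa2-/- had 1 with a median of -0.26, where 2.63% and 0.993% of all genes fell.

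ACGTG is 1 form of the core that hypoxia-inducible factors bind, and other forms were not marked or counted. The promoters of Pgk1, Ldha and Bnip3 are shown because these genes fell with the group and hold ACGTG on both strands of 1 promoter. Each is the 250 bases before the RefSeq start (GRCm38.p6), written 5′ to 3′ on the strand of the gene, with the letters ACGTG or CACGT, the same motif on either strand, in capitals. CACGTG holds both and counts as 2 matches. Ldha has 2 windows, of which 1 holds the motif.
Pgk1 chrX:106186850-106187099, plus strand: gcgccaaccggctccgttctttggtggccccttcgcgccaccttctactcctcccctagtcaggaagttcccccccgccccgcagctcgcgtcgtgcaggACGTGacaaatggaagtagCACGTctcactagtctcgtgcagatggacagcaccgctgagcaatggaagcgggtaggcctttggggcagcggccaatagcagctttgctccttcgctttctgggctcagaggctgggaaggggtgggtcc
Ldha chr7:46845554-46845803, plus strand: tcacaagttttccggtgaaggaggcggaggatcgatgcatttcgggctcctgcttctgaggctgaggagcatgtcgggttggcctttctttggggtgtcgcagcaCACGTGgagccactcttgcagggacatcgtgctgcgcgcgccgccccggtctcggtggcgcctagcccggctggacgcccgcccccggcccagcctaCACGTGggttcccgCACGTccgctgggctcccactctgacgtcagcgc
Bnip3 chr7:138909507-138909756, minus strand: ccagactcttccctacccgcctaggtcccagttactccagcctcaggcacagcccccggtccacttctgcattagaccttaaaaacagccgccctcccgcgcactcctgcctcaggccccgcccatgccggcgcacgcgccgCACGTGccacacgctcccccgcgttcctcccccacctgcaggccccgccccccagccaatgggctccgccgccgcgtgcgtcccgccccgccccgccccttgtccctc
The motif was in 16.57% of 32851 such windows and at 18.49% of 27025 genes. Of the 24 list genes 22 matched a window and 13 had the motif, 9 of the 12 matched genes that fell and 4 of the 10 that were not called. These counts describe letters in a window, for a list of genes known to hold such sites.

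**Figure D4:**
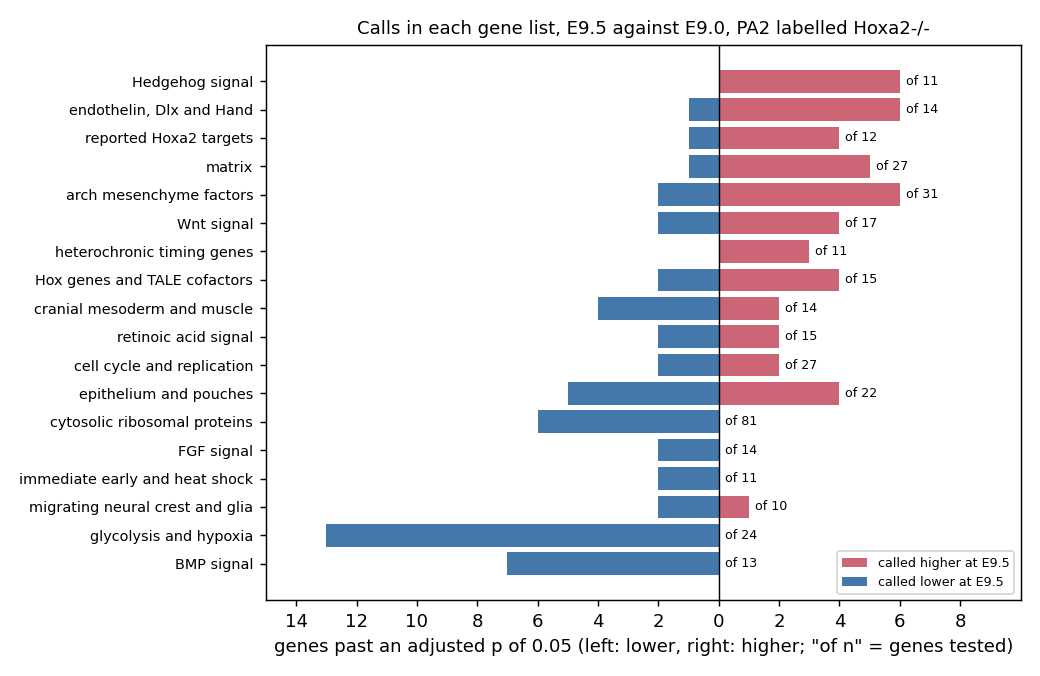
Number of genes called higher (right, red) and lower (left, blue) at E9.5 against E9.0 in PA2 labelled Hoxa2-/-, for 18 gene lists ordered by their median log2 difference, with the number tested beside each bar. Hedgehog genes were called only higher (6 of 11), and BMP (7 of 13) and glycolysis genes (13 of 24) only lower.

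Whether the change differed between the arches of embryos labelled Hoxa2-/- was tested as the change in PA2 minus the change in PA1. In PA1 526 genes were called between the stages (2.85%; 343 higher, 183 lower), but calls in 1 arch and not in the other show no difference by themselves. The difference itself was called for 187 genes (1.01%), 101 above 0 (0.548%) and 86 below (0.467%). Since both arches came from the same embryos, the test was repeated with a block for each embryo, which called 875 genes (4.75%; 474 above 0, 401 below), including all 187. Leaving out E9.0 replicate 3 of PA2 gave 91 genes, replicate 4 107, replicate 1 853 and replicate 2 737, and edgeR called 59. Of the 385 tested list genes, ribosomal protein genes aside, 11 differed above 0 and 7 below.

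Rarres1 differed most among the genes named by rule. In PA2 it rose as described above, and in PA1 it fell from 2.17 ± 0.752 to 0.448 ± 0.252 CPM (log2 -1.12, adjusted p = 0.0386), a difference of changes of 3.08 ± 0.45 (SE, adjusted p = 3.3e-05). Heyl rose in PA2 and had 9.56 ± 3.08 CPM at E9.0 and 5.22 ± 1.71 CPM at E9.5 in PA1 (log2 2.53 ± 0.34 SE, adjusted p = 5.67e-06). Foxd2, a forkhead gene of crest mesenchyme, had 11.6, 22.4, 18.6 and 4.98 CPM at E9.0 and 28.1, 28.5, 34.0, 26.4 and 24.0 CPM at E9.5 in PA2 and 30.4 ± 6.68 CPM at E9.0 and 25.0 ± 8.71 CPM at E9.5 in PA1 (log2 1.41 ± 0.35 SE, adjusted p = 0.0295). S1pr3, a receptor for sphingosine 1-phosphate, had 12.2, 37.3, 19.1 and 34.4 CPM at E9.0 and 59.4, 56.0, 52.5, 79.2 and 45.3 CPM at E9.5 in PA2 and 71.2 ± 6.47 CPM at E9.0 and 69.9 ± 15.2 CPM at E9.5 in PA1 (log2 1.30 ± 0.25 SE, adjusted p = 0.00245). Cped1 completed the genes above 0, with 21.8 ± 9.84 CPM at E9.0 and 46.1 ± 5.81 CPM at E9.5 in PA2 and 50.6 ± 5.11 CPM at E9.0 and 47.0 ± 6.19 CPM at E9.5 in PA1 (log2 1.24 ± 0.20 SE, adjusted p = 0.000216). Rarres1, Heyl, S1pr3 and Cped1 were called whichever library of PA2 was left out, by edgeR and with the tissue covariates. Foxd2 was not called by edgeR (adjusted p = 0.113), with the tissue covariates (0.0621), without E9.0 replicate 4 (log2 1.01, adjusted p = 0.113) or without E9.5 replicate 3 (0.0523). In Foxd2, S1pr3 and Cped1 the PA2 mean was below that of PA1 at E9.0 and within 1 SD of it at E9.5.

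Below 0 stood Ret, Mtus2, Prokr1, Mpped2 and Tle6, which fell in PA2. Every PA1 library was below every E9.0 library of PA2 in these 5 genes. Ret had 0.732 ± 0.383 CPM at E9.0 and 0.383 ± 0.237 CPM at E9.5 in PA1 (difference of changes -1.71 ± 0.42 SE, adjusted p = 0.0262), Mtus2 had 2.69 ± 0.812 CPM at E9.0 and 3.22 ± 1.36 CPM at E9.5 (log2 -1.57 ± 0.40 SE, adjusted p = 0.0367) and Prokr1 had 2.12 ± 0.769 CPM at E9.0 and 2.38 ± 1.01 CPM at E9.5 (log2 -1.43 ± 0.36 SE, adjusted p = 0.034). Mpped2, a metallophosphoesterase gene, had 51.1, 27.7, 29.1 and 53.3 CPM at E9.0 and 15.6, 24.4, 21.6, 16.6 and 26.8 CPM at E9.5 in PA2 (log2 -1.16 ± 0.27 SE, adjusted p = 0.0217), and Tle6, a relative of the Groucho co-repressors, had 16.02, 6.82, 14.7 and 9.60 CPM at E9.0 and 5.79, 5.15, 4.43, 2.44 and 3.68 CPM at E9.5 (log2 -1.15 ± 0.30 SE, adjusted p = 0.0385). Of these 5 genes edgeR called Mpped2 but not Ret (adjusted p = 0.435), Mtus2 (0.1025), Prokr1 (0.0672) or Tle6 (0.135). With the tissue covariates the difference of Prokr1 was -0.66 (adjusted p = 0.318), and Ret (0.0717) and Tle6 (0.0547) missed the threshold too. None of the 5 was called whichever PA2 library was left out: the call of Mpped2 was lost without E9.0 replicate 4, that of Ret without E9.0 replicate 3 or E9.5 replicate 4, that of Mtus2 without E9.0 replicate 4 or E9.5 replicate 1 or 4, that of Prokr1 without E9.0 replicate 1 or 4 or E9.5 replicate 4, and that of Tle6 without E9.0 replicate 3 or E9.5 replicate 4 or 5.

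The list genes below 0 were Hoxb1 (-2.06), the pouch and hindbrain homeobox gene Gbx2 (-2.05), the BMP decoy receptor Bambi (-1.18), Fgf8 (-1.12), the retinoic acid binding protein gene Crabp2 (-1.03), Ripply3 (-1.01) and the cell cycle inhibitor gene Cdkn1c (-0.94). Fgf8 had 21.1 ± 5.01 CPM at E9.0 and 24.2 ± 5.26 CPM at E9.5 in PA1, while it fell in PA2. Those above 0, beside Rarres1, were the arch muscle factor Msc (1.56), the retinoic acid enzyme gene Aldh1a3 (1.45), the mesenchymal factor Ebf2 (1.32), Jag1 (1.29), Trp63 (1.22), Cdkn1a (1.09), Wnt5a (1.06), Lin28b (0.97), Gli3 (0.93) and Eya1 (0.68). Wnt5a had 111 ± 41.4 CPM at E9.0 and 121 ± 25.6 CPM at E9.5 in PA1, and Lin28b had 239 ± 11.3 CPM at E9.0 and 242 ± 26.3 CPM at E9.5, so both means in PA1 barely moved while those of PA2 rose. E9.0 replicate 3 of PA2 was the lowest of its stage for Wnt5a, Lin28b and Gli3, and without it none of these 3 differences was called. Of the 18 list genes, 6 were called whichever PA2 library was left out (Hoxb1, Gbx2, Bambi, Crabp2, Rarres1 and Ebf2), 9 by edgeR and 10 with the tissue covariates.

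Whether the change depended on the genotype label was tested as the change in PA2 labelled Hoxa2-/- minus that in wildtype PA2. In wildtype PA2 alone 1231 genes were called (6.68%; 747 higher, 484 lower). The difference was called for 6 genes (0.0326%), 1 above 0 and 5 below, against 2003 at an unadjusted p under 0.05, and a fit of the 4 compared groups alone called 0 (1139 at an unadjusted p under 0.05). All 6 are named here after their values were seen, and none is in a list. Ski, a co-repressor of TGF-beta signalling, had 22.8, 16.4, 15.7 and 19.9 CPM at E9.0 and 18.1, 14.5, 13.5, 18.1 and 13.8 CPM at E9.5 with the label Hoxa2-/- and 33.8 ± 11.6 CPM at E9.0 and 78.3 ± 21.0 CPM at E9.5 in wildtype (log2 -1.45 ± 0.27 SE, adjusted p = 0.0114). Chst8, a sulfotransferase gene, had 1.74 ± 0.478 CPM at E9.0 and 1.09 ± 0.388 CPM at E9.5 against 1.87 ± 0.514 CPM at E9.0 and 4.54 ± 1.13 CPM at E9.5 in wildtype (log2 -1.33 ± 0.27 SE, adjusted p = 0.0198). Gm47854, a predicted gene, had 49.0 ± 13.7 CPM at E9.0 against 39.4 ± 11.7 CPM at E9.5 and in wildtype 48.1 ± 18.7 CPM at E9.0 and 5.95 ± 0.673 CPM at E9.5 (log2 2.42 ± 0.45 SE, adjusted p = 0.0114). Esyt3 (-1.18), Atp6v1g2 (-1.08) and Man2b1 (-0.79) differed below 0. Of the 6, Ski and Gm47854 were called whichever of the 9 libraries labelled Hoxa2-/- was left out, and edgeR called 3. The means of Ski and Gm47854 moved more in wildtype PA2, and no fit left out a single wildtype library. These fits therefore cannot show whether 1 wildtype library carried the differences.

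The stage changes of the 23 named genes are set side by side for the 3 sets of libraries without a test between sets other than those above. Barx1 was called in all 3, with differences of 3.28, 3.21 in wildtype PA2 and 3.09 in PA1 of the same label. Car7 had -1.91 in PA2 labelled Hoxa2-/-, -0.05 in wildtype PA2 (adjusted p = 0.964) and -0.11 in PA1 (adjusted p = 0.954), and the difference between labels, -1.86, was not called (adjusted p = 0.278). The 3 sets share no library, but PA1 and PA2 of the same label share embryos.

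**Figure D5:**
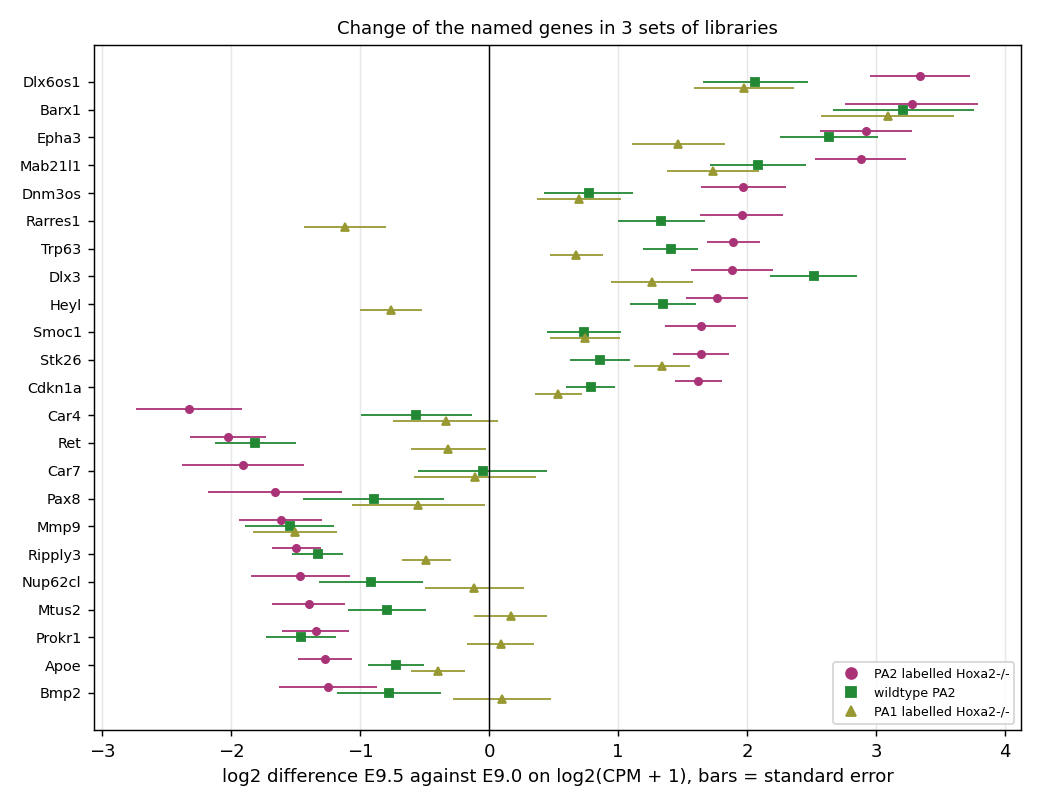
log2 difference between E9.5 and E9.0 of the 23 named genes, with standard errors, in PA2 labelled Hoxa2-/- (purple circles), wildtype PA2 (green squares) and PA1 labelled Hoxa2-/- (olive triangles). The genes were chosen on the purple values, Barx1 rises by 3.09 to 3.28 in all 3 sets, and Rarres1 and Heyl are above 0 in both PA2 sets and below 0 in PA1.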

How the data were processed

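RNA-seq of hand-dissected arches was used (SMART-Seq v4 and Nextera XT libraries, per the labels' protocols). The authors deposited 1 table of a CPM-like signal (reads scaled to library size and then by a further factor, since column totals ran from 926298 to 1051959) for 21948 Ensembl IDs, 21921 with a symbol, in 68 libraries. The submitters' processing notes name bcl2fastq 2.18, TopHat2 2.1.1, R 3.3.2 and mm10. The counter, the annotation and whether strand was used are not given in the sources used here. The deposited values are whole multiples of 1 read, so the reads behind them were recovered as counts (100% of values whole within 0.01 reads), 8912251 to 20619153 a library. No molecular identifiers were used, so reads are not independent molecules.

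Differences were fitted with limma 3.58.1 (R 4.3.3) on log2(CPM + 1), with a mean for each of the 16 groups, for the 18428 genes with at least 1 CPM in at least 3 libraries, and p-values were two-sided and adjusted by Benjamini-Hochberg over those genes. CPM had been planned as the unit, and the scaled signal took the same test. The test was run on simulated data with independent counts and 1 spread per gene for all libraries. Such data hold no deviant library, so they cannot show how the test behaves with those found here. The alternatives were edgeR 4.0.16 (quasi-likelihood) on the recovered counts, without PA1 labelled Hoxa2-/- E9.0 replicate 3 (its value of 1 read, 0.0996 CPM, is so near a round decimal that whole reads could not be told from rounding there), other pseudocounts, filters, scaling and covariates, replicate blocks, and each of the 9 libraries left out in turn. The genes named singly were up to 12 in each direction, by size of the difference among called genes whose stages did not overlap, with a mean of at least 10 CPM in the higher stage, a regular symbol, and no place in the heart, yolk sac, red cell or macrophage lists, and up to 5 in each direction for the differences of changes. A few listed genes, 1 of which the rule selects, are not reported here. The 25 gene lists (418 genes, 397 in the table, 385 tested), to which the ribosomal protein genes were added by symbol, and the groups compared were chosen with earlier results of these data known. PA1 and PA2 of the same number deviated together from their group means (Pearson's r across genes 0.08 to 0.27 at E9.0 and 0.22 to 0.44 at E9.5). The series text says that both came from single embryos, so an alternative fit of the arch difference treated them as pairs, with the embryo as a block. The 187 genes of that difference, and the SE and adjusted p given for single genes, come from the fit without this block.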

Additional observations from a re-analysis of the deposited data

Results flagged for a closer look

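Single libraries of a stage lay far from the others in 13 of 62 groups of values tested. The named genes among them were chosen from these same libraries for large differences, so no chance rate applies. E9.0 replicate 3 stood apart in the yolk sac list at 541.9 CPM and in the cranial ganglion list at 46.0 CPM, and E9.5 replicate 3 in the yolk sac list at 60.7 CPM. E9.5 replicate 4 stood apart in 9 of the 13, low in the otic vesicle list at 14.6 CPM, in Pax8 at 1.29 CPM and in Bmp2 at 2.44 CPM. The same library was high in Barx1 at 227.9 CPM, Dlx3 at 107.9 CPM, Dlx6os1 at 106.3 CPM, Mab21l1 at 51.4 CPM, Rarres1 at 35.6 CPM and Cdkn1a at 26.7 CPM. Pax8 was also set apart in E9.0 replicate 1, at 75.0 CPM.

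By the test of the difference itself, 187 genes changed differently in PA2 and PA1 of embryos labelled Hoxa2-/-, and 6 changed differently in PA2 under the 2 labels. Of the genes named by rule, the change in PA2 minus that in PA1 was 3.08 in Rarres1, 2.53 in Heyl, 1.41 in Foxd2, 1.30 in S1pr3 and 1.24 in Cped1 on the log2 scale. It was -1.71 in Ret, -1.57 in Mtus2, -1.43 in Prokr1, -1.16 in Mpped2 and -1.15 in Tle6.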

How the results depend on the processing

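The 3119 genes called between the stages became 5 in a fit of the 9 libraries alone, 931 to 4295 with 1 library left out (931 without E9.0 replicate 3, 1664 without E9.5 replicate 4), and 328 without both, a setting chosen after seeing the data. The share of called genes that were higher was 58.99%, 46.29% without E9.0 replicate 3 and 44.82% without both. Pseudocounts of 0.25 and 5, the other filters, median-of-ratios scaling, edgeR (2495) and the tissue covariates kept the count within 1.5 times. The 187 genes of the arch difference became 4 with only the compared groups, 59 with edgeR, 875 with the embryo as a block, 91 to 853 with 1 library left out and 80 without both. For the 6 genes of the label difference, a pseudocount of 0.25 gave 3, one of 5 gave 12, a filter of 5 CPM gave 3, only the compared groups gave 0 (1139 at an unadjusted p under 0.05 in limma, and edgeR over all groups called 5), 1 library left out gave 3 to 43 and both gave 3. Replicate numbers do not pair the stages: libraries of 1 number were correlated at -0.15 to -0.04, and with the number as a replicate block 2671 genes were called between the stages and 4 for the label difference. For the yolk sac list the log2 ratio of mean sums, -2.29, became -0.79 as a mean of log2 levels and ran from -2.65 to -0.039 with 1 library left out, and for the otic list the mean of log2 levels gave -0.48. Of the 148 single-gene differences named in the text, calls were lost by 128 in a fit of the compared groups alone, 76 without both libraries, 58 without E9.5 replicate 4, 48 without E9.0 replicate 3, 42 with the tissue covariates, 33 in edgeR, 16 with the replicate block, 13 with a pseudocount of 0.25, 9 with one of 5, 8 with no filter and 11 to 35 with 1 of the other libraries left out. No direction reversed with another pseudocount, filter, scaling or test, with the replicate block or with 1 library left out. With tissue covariates the differences of Aldh1a3 (-0.084), Apoa1 (0.054), Myh7 (0.29) and Rbp4 (0.0044) turned, and without both libraries that of Rbp4 did (0.044), and none of the 4 was called between the stages with all libraries. The cause of these changes was not tested. With 4 and 5 libraries a stage, single libraries set the calls, and 3 reads, 0.207 to 0.284 CPM, limit what can be read of genes such as Dlx4, Bcl11a and Hoxb1.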

Other observations

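In the fit of the 9 libraries alone, Cdkn1a and 4 other genes were called. They are given here because they did not rest on a single library, and they were chosen after their values were seen. Galr1, a receptor for the neuropeptide galanin, had 0, 1.81, 0.5678 and 1.11 CPM at E9.0 and 6.14, 7.27, 7.84, 7.69 and 8.20 CPM at E9.5 (log2 2.27 ± 0.25 SE, adjusted p = 4.79e-09), with the 5 E9.5 libraries close together. Cxcl12, the chemokine that guides migrating crest and endothelial cells, had 94.4, 112, 102 and 85.4 CPM at E9.0 and 164, 149, 179, 181 and 173 CPM at E9.5 (log2 0.78 ± 0.11 SE, adjusted p = 3.52e-06). Neither gene overlapped between the stages.

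Lmo2, a LIM-domain partner of blood and endothelial transcription factors, fell without overlap, with 58.3, 42.1, 47.5 and 54.3 CPM at E9.0 and 24.7, 27.3, 25.0, 20.48 and 22.3 CPM at E9.5 (log2 -1.04 ± 0.14 SE, adjusted p = 7e-07). Agtr1a, an angiotensin II receptor gene, had 7.41, 5.75, 6.53 and 6.92 CPM at E9.0 and 3.38, 2.04, 1.81, 2.23 and 2.15 CPM at E9.5 (log2 -1.22 ± 0.18 SE, adjusted p = 4.93e-06), and its stages did not overlap either. All 4 were called whichever library was left out. In wildtype PA2 the differences were 1.36 for Galr1 (adjusted p = 0.000801), 0.29 for Cxcl12 (adjusted p = 0.12), -0.71 for Lmo2 (adjusted p = 0.00236) and -0.69 for Agtr1a (adjusted p = 0.0193). Lmo2 is also expressed in red cells and their precursors, whose list sums were lower on average at E9.5, and with tissue covariates its difference was -0.89 (adjusted p = 7.9e-05).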
